A study of Mus musculus with 36 samples.

Results

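The lot 11 astrocyte lines are a female line and a male line derived from the same litter of mice, and they contribute 8 of the 36 libraries of the series, 4 from each line. The libraries are those whose labels name lot 11. Both lines have the genotype Nf1-/- DNp53, that is, they lack Nf1 and carry DNp53, a dominant-negative form of p53, and the labels call them transformed astrocytes. The 8 lines set beside them are the female and male lines of lots 6, 7, 8 and 12, with 3 or 4 libraries each. All 10 lines carry the same genotype and none was given a treatment, so no untransformed astrocyte is available as a control. Each lot is a separate litter, recorded in the labels as the batch, and holds 1 line of each sex. Sex and line therefore cannot be told apart within lot 11, and a difference below is one between 2 lines. The labels do not say whether the libraries of a line came from separate cultures, so p-values measure only the spread between these libraries, which may be technical.

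Nf1 encodes neurofibromin, which speeds the hydrolysis of GTP by Ras, and cells without it keep more Ras in its active form. Dominant-negative p53 binds normal p53 and blocks its activation of checkpoint and death genes. Mouse astrocytes that carry both defects are used as a model of glioblastoma, the most aggressive brain tumour of the glial lineage.

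RNA was measured by BRB-seq, in which each sample's transcripts are barcoded at the 3' end and sequenced as a pool. Levels are therefore counts of 3' tags per gene, given here as CPM, each library's counts scaled to a common total by the TMM method, which allows for differences in composition between libraries. The 8 libraries held 5566314 to 7445520 counts in 13197 to 13812 detected genes. At that depth 3 counts, the limit that a count of 0 allows, correspond to 0.403 to 0.539 CPM, for counting error only.

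The sex label matched the data: the non-coding RNA Xist stood at 6.40 ± 1.22 CPM (SD, n = 4) in the female line and at 0 in all 4 male libraries, and the Y-linked Ddx3y at 0.151 ± 0.113 and 22.3 ± 5.58 CPM. Nf1 tags were few in both lines, at 2.07 ± 0.847 and 2.02 ± 1.20 CPM, but the labels do not say which part of the gene is deleted, so these tags cannot check the deletion. Of the astrocyte markers, the gap junction gene Gja1 was at 184 ± 16.4 and 172 ± 88.0 CPM, while Gfap (0.339 and 0.453 CPM) and Aqp4 (0.656 and 0.156 CPM) were near the depth limit and Gjb6, Ntsr2, Atp1b2 and Hepacam were at 0. The progenitor genes Nes (110 ± 21.0 and 78.6 ± 22.6 CPM) and Sox2 (70.5 ± 5.47 and 48.9 ± 8.95 CPM) were well detected. Several defining genes of mature astrocytes were thus at or near 0 in both lines. Of 21 astrocyte markers, however, 12 were over 1 CPM in the female line and 10 in the male line. They include Sox9 (11.5 and 12.7 CPM) and Slc1a3 (4.19 and 4.51 CPM). Between the lines, 0 of 12 astrocyte markers tested passed in edgeR (1 at an unadjusted p under 0.05, and 1 in DESeq2). The microglial genes Aif1, Itgam, Tyrobp and Trem2 and the endothelial genes Cdh5 and Cldn5 were at 0 in all 8 libraries. Other members of these lists were detected at a low level. In each line, 3 of 15 microglia and macrophage markers and 3 of 13 endothelial markers were over 1 CPM. Cd14 (3.92 CPM) and Flt1 (7.83 CPM) were the most abundant.

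One library stood apart in part of its genes. In male replicate 1, 23 of the 500 autosomal genes called below exceeded 2 times each of the other 3 male libraries, against 6 to 14 genes in any of the other 7. The calls of Notch2, Adam10, Wtap and Vapa were lost without it. The RNA methylation factor Wtap stood at 120 CPM there and at 10.4 to 25.7 CPM in the other 3 male libraries, and its difference went from -2.25 to -0.91 without it (adjusted p = 0.393). Vapa, a membrane-contact protein, stood at 60.2 CPM and at 22.7 to 27 CPM, and its difference went from -1.04 to -0.62 (adjusted p = 0.116).

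Between the 2 lines, 527 of 12173 genes tested (4.33%) differed at an adjusted p under 0.05, 185 with the female line above the male line (1.52%) and 342 with it below (2.81%). Leaving out 1 library at a time gave 380 to 491 genes. On the autosomes, 500 of 11717 genes (4.27%) passed: 168 had the higher level in the female line (1.43%) and 332 the lower level (2.83%), so 66.4% of the differences were lower in the female line. The lower genes also differed more, with a median change of 1.56 on the log2 scale against 0.97 for the higher ones. More than 8-fold changes were found for 72 lower and 22 higher genes. The 4 and 4 libraries did not overlap for 439 of the 500 genes, where 10.3% of all genes tested showed no overlap. Of the 500 autosomal calls, 256 held in each of the 8 fits that left out 1 library, and the genes named below held in all of them unless stated.

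**Figure D1:**
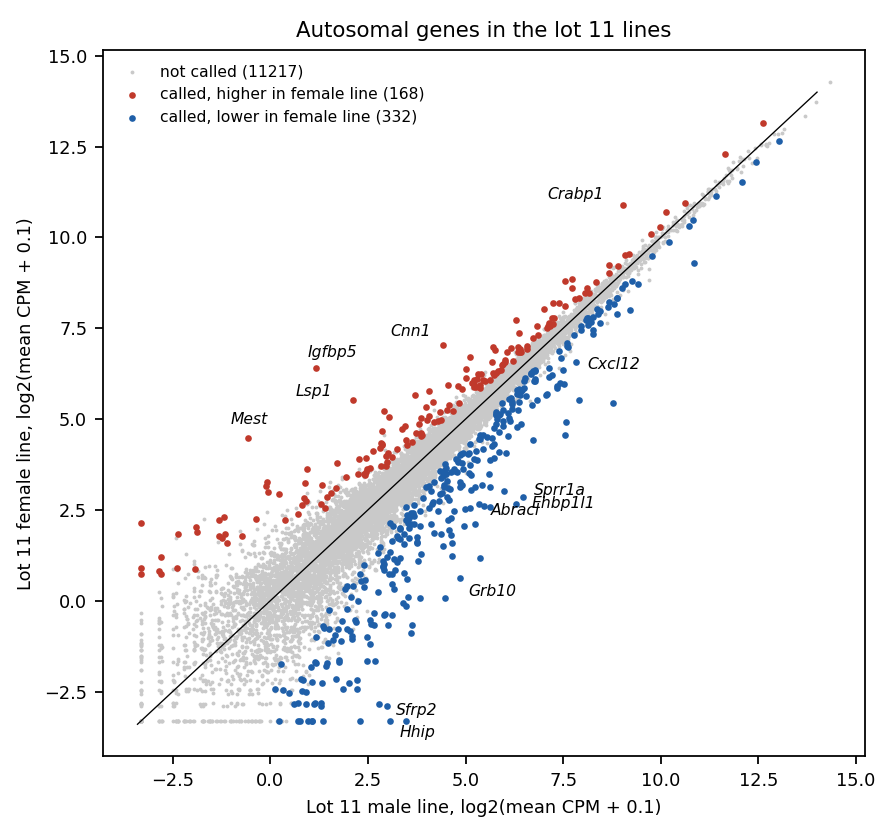
Mean level of each autosomal gene in the lot 11 male line (x axis) and female line (y axis), both as log2(mean CPM + 0.1), with 4 libraries a line; red and blue points passed the test and the diagonal marks equal levels. The 332 blue points lie below the diagonal and spread farther from it than the 168 red points.

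The pair was among the most alike of the 10 lines. Over 6678 well-detected genes, the root mean square difference between the 2 lot 11 lines was 0.421 on the log2 scale, the smallest of the 45 pairs that the 10 lines form, ahead of the lot 12 pair at 0.429. The same test called 27.6% of genes between the lines of lot 6, 10.8% for the lot 7 pair, 11.4% for the lot 8 pair and 3.8% for the lot 12 pair. The share for lot 11 was 4.33%, above that of lot 12, whose lines have 3 libraries each. The genes that passed included secreted factors and their antagonists, matrix enzymes and genes that were near 0 in one line and on in the other.

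Within the insulin-like growth factor system, the genes that passed were binding proteins. Insulin-like growth factors drive growth through the receptor Igf1r, the Igfbp proteins bind the factors outside the cell, and Grb10 and Grb14 are adaptors that dampen the receptors' signal. Igfbp5 (chr1:72857932-72874884 on GRCm38) was at 111, 53.1, 81.5 and 94.6 CPM in the female libraries and at 1.58, 2.75, 1.32 and 2.96 CPM in the male ones. The groups lie far apart, and the difference was 5.28 ± 0.60 on the log2 scale (SE, adjusted p = 5.69e-08). Igfbp3 was at 45.1 to 56 CPM against 10.2 to 16.2 CPM, a rise of 1.97 ± 0.35 (adjusted p = 0.000243). Igfbp2 and Igfbp7 went the other way, by -1.56 ± 0.28 and -1.75 ± 0.29. Igfbp7 stood at 6.67 to 10.5 CPM in female and 24.4 to 34.9 CPM in male libraries, with no overlap. Of 14 genes of this axis tested, 2 were higher and 2 lower, where 1.52% of all genes tested were higher and 2.81% lower.

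Mest and Grb10, which are imprinted genes expressed from 1 parental copy in many tissues, moved in opposite directions. Mest (chr6:30723547-30748465) stood at 18.7, 18.3, 33 and 19.4 CPM in the female libraries and at 0.158, 0.861, 0.189 and 1.09 CPM in the male ones, a difference of 5.21 ± 0.46 (adjusted p = 1.94e-10). Grb10 (chr11:11930508-12038683) stood at 1.34, 0.819, 0.695 and 2.95 CPM against 31.3, 28.6, 23.7 and 31.6 CPM, a difference of -4.29 ± 0.43 (adjusted p = 4.76e-09). Each gene was low in every library of one line and on in every library of the other. Mest was also low in the male lines of lots 6, 7 and 8 (0.873, 0.937 and 0.904 CPM), and it passed with the female line higher in lots 6, 8 and 12, where the female lines averaged 43.6, 13.4 and 23.3 CPM. The related adaptor Grb14 was higher in the female line, at 25.1 to 42.7 CPM against 5.68 to 11.5 CPM (2.04 ± 0.37). Of 14 imprinted genes tested, Mest and Grb10 were the ones that passed, where 4.33% of all genes tested passed.

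Among secreted growth factors, more of those that passed were lower than higher in the female line, as was the case over all genes. Of 34 ligands tested, 5 were lower and 1 was higher, against 2.81% and 1.52% of all genes tested. When any 1 library was left out, 5 to 6 ligands were lower. Fgf7, a fibroblast growth factor that acts on epithelial cells, was at 3.01, 3.14, 5.56 and 6.51 CPM in the female libraries and at 26.5, 15.7, 26.5 and 24 CPM in the male ones (-2.35 ± 0.27, adjusted p = 7.48e-08). Bdnf, a neurotrophin, stood at 16.1 to 25 CPM against 42.6 to 70.8 CPM. Both genes kept the groups apart without overlap. Areg, a ligand of the EGF receptor, averaged 17.9 and 43.6 CPM with overlapping libraries (9.77 to 28.7 against 21.8 to 63.3). Kitl, the ligand of the receptor Kit, averaged 2.05 and 7.29 CPM. Hbegf, another EGF receptor ligand, was the exception, with 532 to 662 CPM in female and 386 to 428 CPM in male libraries (0.56 ± 0.13, adjusted p = 0.00621).

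**Figure D2:**
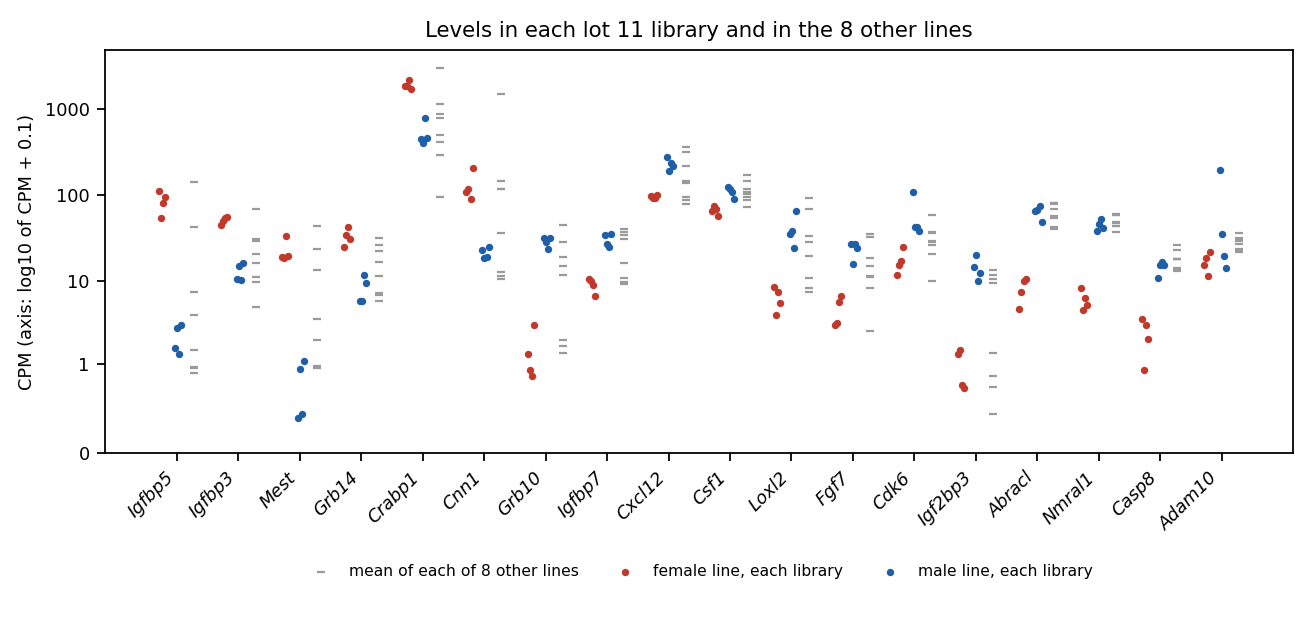
CPM of 18 genes, on an axis of log10(CPM + 0.1), in each of the 4 female (red) and 4 male (blue) lot 11 libraries, with the mean of each of the 8 other lines as grey dashes. Red and blue points are apart for the genes drawn except Adam10, where male replicate 1 (193 CPM) is far above the other male libraries.

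Matrix genes that changed were mostly lower in the female line, and they included cross-linking enzymes and elastic-fibre proteins and no fibrillar collagen. Lysyl oxidases oxidise lysines of collagen and elastin so that the fibres can be cross-linked, and fibulins join elastic fibres. Of 35 matrix genes tested, 7 were lower (Lox, Loxl1, Loxl2, Fbln1, Fbln5, Sparc and the X-linked Bgn) and 1 higher. The shares over all genes tested were 2.81% lower and 1.52% higher. The median over the list was -0.24, against -0.01 over all genes. Between 5 and 7 matrix genes were lower when any 1 library was left out. The calls of Lox and Sparc were lost in 4 and 6 of those 8 fits, with an adjusted p of up to 0.167 and 0.121. Loxl2 stood at 8.35, 3.96, 7.3 and 5.43 CPM in the female libraries and at 34.9, 38.1, 23.9 and 65.5 CPM in the male ones (-2.71 ± 0.39, adjusted p = 6.06e-06). Loxl1 was at 39.1 to 55.5 CPM against 106 to 126 CPM (-1.31 ± 0.16), and Fbln5 at 19.2 to 26.9 CPM against 57.7 to 86.4 CPM (-1.55 ± 0.18). Female and male libraries did not overlap for these 3 genes. The lower-level Fbln1 averaged 0.698 and 6.19 CPM. Loxl3 alone was higher in the female line, at 25.5 to 37 CPM against 14.6 to 22.1 CPM, and its call was lost without female replicate 3 (adjusted p = 0.0525). The summed level of 18 fibroblast and meningeal markers moved with these genes: it was 212 to 297 CPM in the female and 398 to 579 CPM in the male libraries, with Col1a1 its most abundant gene, and Lum, Fap, Dpt, Pi16 and Slc6a13 were at 0 in all 8. Of the 11 genes of that list tested, Mgp, an inhibitor of calcification, was lower (60.1 and 162 CPM) and Thy1 was higher (4.81 and 0.338 CPM), with a call lost without female replicate 4 (adjusted p = 0.141) or male replicate 1 (adjusted p = 0.0508). Whether a different mix of cells has a part in the matrix genes was not tested. In bulk RNA, fewer cells of a type and less RNA per cell cannot be told apart.

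Among 25 matrix proteases and inhibitors, 4 were lower and 1 was higher in the female line, against 2.81% and 1.52% of all genes tested. Timp2, an inhibitor of matrix metalloproteinases, stood at 221 to 308 CPM against 373 to 468 CPM (-0.58 ± 0.12, adjusted p = 0.00143). Serpine2, an inhibitor of thrombin and plasminogen activators, averaged 0.467 and 4.00 CPM. The sheddase Adam10 was called through 1 library: it was at 193 CPM in male replicate 1 and at 34.8, 19.3 and 14.2 CPM in the other 3, against 11.3 to 21.4 CPM in the female line. Its difference went from -1.98 to -0.46 without that library (adjusted p = 0.626). The receptor Notch2, at 99.7 CPM there and 5.91 to 12.1 CPM in the other 3 male libraries, went from -2.94 to -1.05 (adjusted p = 0.341). The laminin-binding basement membrane linker Nid1 had 2 counts in all female libraries against 86, a ratio of 46.0 (exact 95% counting interval 12.4 to 386).

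Actin-binding genes went the other way. Of 29 contractile genes and targets of serum response factor tested, 4 had a higher level and 1 a lower level in the female line. The shares over all genes tested were 1.52% higher and 2.81% lower. When any 1 library was left out, 3 to 4 of the 29 were higher. Cnn1, the smooth muscle calponin, was at 109, 118, 90.5 and 205 CPM in the female libraries and at 23.1, 18.6, 19.1 and 25.1 CPM in the male ones (2.60 ± 0.40, adjusted p = 1.76e-05). Tagln2 stood at 1563 to 1811 CPM against 923 to 1237 CPM, and Pdlim7, a linker of actin filaments, at 321 to 366 CPM against 251 to 278 CPM. None of the 3 overlapped between lines. Acta2, the most abundant gene of the programme, was at 4010 to 5276 CPM against 3280 to 5228 CPM and did not pass (0.18 ± 0.13, adjusted p = 0.589). The tropomyosin Tpm2 was lower, at 180 to 300 CPM against 366 to 606 CPM. The cardiac and fetal troponin Tnnt2 was also lower, at 20.6 to 35.8 CPM against 134 to 227 CPM (-2.64 ± 0.34), and it made up most of the muscle marker list, in which Myod1, Myog, Myf5 and Des were at 0.

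NF-kB and STAT3 signalling, which the title of the series names, was read here from transcript levels alone, which do not measure signalling. NF-kB dimers, built from subunits such as Rela and held in the cytoplasm by Nfkbia, switch on chemokine and cytokine genes, and STAT3 is switched on by receptors that share the subunit Il6st. Rela was at 41.4, 41.1, 35.8 and 42.3 CPM in the female libraries and at 45.5, 54.1, 49.2 and 49.5 CPM in the male ones, which do not overlap, but the difference did not pass (-0.30 ± 0.18, adjusted p = 0.435). Il6st averaged 16.0 and 19.2 CPM and Socs3, a feedback inhibitor induced by STAT3, 3.16 and 2.72 CPM, and neither passed. Of 30 components of these pathways tested, 0 were higher and 1 lower, with a median of -0.26. Of 22 NF-kB targets tested, 0 were higher and 3 lower (Csf1, Ccl2 and Nfkbia), with a median of -0.33. Over all genes tested, 2.81% were lower and the median was -0.01. Csf1, the growth factor of macrophages and microglia, was at 65.7, 75.1, 68.6 and 56.6 CPM against 123, 116, 108 and 90.4 CPM (-0.71 ± 0.16, adjusted p = 0.00282). Ccl2, which attracts monocytes, was at 6.01, 6.69, 5.04 and 5.27 CPM against 16, 16.2, 26.1 and 8.09 CPM (-1.52 ± 0.35, adjusted p = 0.00608), and its call was lost without male replicate 3 (adjusted p = 0.0524). Nfkbia was at 44.5 to 51.5 CPM against 54.1 to 86.1 CPM (-0.59 ± 0.15, adjusted p = 0.0155), and its call was lost without any 1 of 4 libraries (female replicates 1 and 3, male replicates 1 and 2), with an adjusted p of up to 0.0942. Of 23 STAT3 targets, 1 was higher and 1 lower.

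Chemokines outside that list split. Cxcl12, which binds the receptor Cxcr4 and attracts leukocytes and neural progenitors, was at 97.5, 92.7, 91.6 and 98.9 CPM in the female libraries and at 276, 192, 233 and 214 CPM in the male ones (-1.26 ± 0.13, adjusted p = 7.8e-09). Cxcl14 was higher in the female line, at 91.5, 30.7, 78.2 and 42.9 CPM against 21.5, 15.8, 24.6 and 31.1 CPM, with 1 female library inside the male range. Of 24 interferon-response genes, 2 passed and both were lower, where 2.81% of all genes tested were lower. They were Bst2, which tethers budding virions (2.91 and 13.4 CPM), and Ifitm1, with 3 counts in all female libraries against 104.

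Regulatory sequence of the NF-kB targets that passed was read because they share 1 known regulator. RefSeq promoters (GRCm38.p6, the 250 bases before the start of the gene) were in hand for 15 of the 22 targets, and 5 of these held a kappa-B-type pattern (GGGA and TTCC with any 2 bases between them) on either strand, which is found in 397 of 32851 promoters (1.21%). Of the 5, Cxcl1, Cxcl10 and Nfkb2 did not pass between the lines, and Ccl2, which did, had no promoter in hand. A gene can have more than 1 promoter, so the count over targets and that over promoters are in unlike units. Csf1 and Nfkbia are among the 5 and are shown on their own strand, 5′ to 3′, with the match in capitals. Both matches lie on the opposite strand, so that they read as the reverse complement of the pattern.
Csf1 (chr3:107760470-107760719, minus strand): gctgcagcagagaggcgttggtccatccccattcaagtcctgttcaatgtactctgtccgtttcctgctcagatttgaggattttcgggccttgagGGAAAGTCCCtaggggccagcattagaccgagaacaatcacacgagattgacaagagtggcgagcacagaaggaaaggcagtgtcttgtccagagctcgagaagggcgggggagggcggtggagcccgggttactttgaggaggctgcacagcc
Nfkbia (chr12:55492648-55492897, minus strand): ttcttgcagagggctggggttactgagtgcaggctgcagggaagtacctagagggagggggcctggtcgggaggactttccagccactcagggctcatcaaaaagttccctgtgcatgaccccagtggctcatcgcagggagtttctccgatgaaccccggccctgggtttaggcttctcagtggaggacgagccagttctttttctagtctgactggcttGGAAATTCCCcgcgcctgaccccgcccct
The match of Csf1 begins 154 bases before the start of the gene and that of Nfkbia 29 bases before it. A match describes the letters of the promoter and does not show that a factor was bound there in either line.

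**Figure D3:**
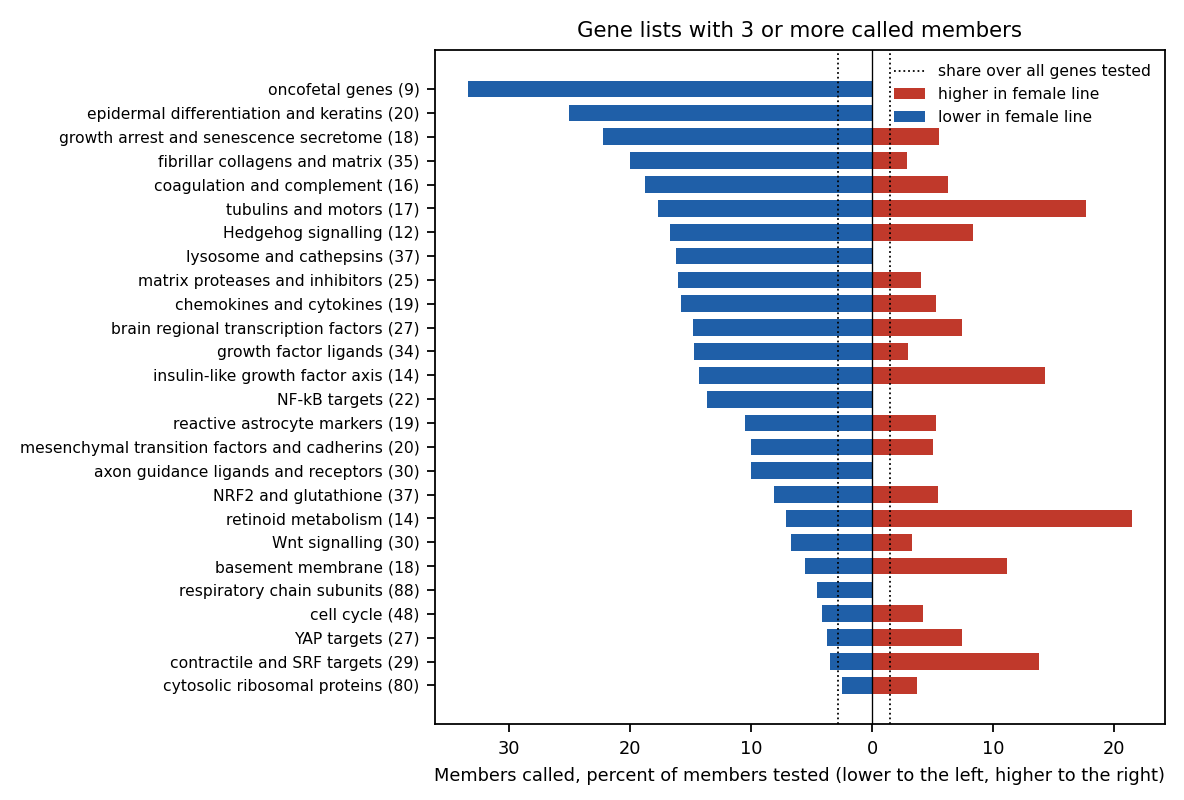
Share of the tested members of each gene list (number tested in parentheses) that were higher (red, to the right) or lower (blue, to the left) in the lot 11 female line, for the 26 of 64 lists with 3 or more called members; lists overlap, and dotted lines mark the shares over all genes tested, 1.52% and 2.81%. In 18 of the 26 lists more members were lower than higher, where 66.4% of all autosomal calls were lower.

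Growth control genes moved singly. D-type cyclins with Cdk4 or Cdk6 start the cell cycle by phosphorylating the retinoblastoma protein. Of 48 cell cycle genes tested, 2 were higher and 2 lower, where 1.52% of all genes tested were higher and 2.81% lower. Cdk6 was at 11.5, 15.2, 17 and 24.6 CPM in the female libraries and at 107, 42.4, 42 and 38.3 CPM in the male ones (-1.75 ± 0.30, adjusted p = 0.000159), and its call held without male replicate 1. Ccnd2, cyclin D2, was at 149 to 196 CPM against 286 to 356 CPM (-0.81 ± 0.16). Ccnd1, cyclin D1, was higher in the female line, at 202 to 312 CPM against 179 to 202 CPM, with a call lost without any 1 of 5 libraries (female replicates 1 and 3, male replicates 1, 2 and 4) and an adjusted p of up to 0.0875. Of the 10 inhibitors of cyclin-dependent kinases, 0 passed in edgeR or DESeq2, with 1 at an unadjusted p under 0.05, and Trp53 averaged 256 and 290 CPM (adjusted p = 0.525). Of 28 targets of p53, 2 were lower: Perp, a junction protein with a part in p53-dependent death (8.63 and 49.5 CPM), and Tnfrsf10b, a death receptor (2.85 and 10.7 CPM).

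Oncofetal genes, which are active in embryos and again in many tumours, were lower in the female line in 3 of 9 cases and higher in 0. The shares over all genes tested were 2.81% lower and 1.52% higher. Igf2bp3, an RNA-binding protein that binds Igf2 mRNA, stood at 1.34, 1.5, 0.521 and 0.465 CPM against 14.5, 19.8, 9.84 and 12.3 CPM (-3.84 ± 0.49, adjusted p = 4.92e-07). Igf2bp1 averaged 3.23 and 11.6 CPM. The chromatin protein Hmga1, whose reads may be shared with processed copies, was at 71.8 to 87.8 CPM against 154 to 208 CPM. Female and male libraries did not overlap for any of the 3.

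Genes of the Wnt and Hedgehog pathways passed in both directions. Of 30 Wnt genes tested, 1 was higher and 2 were lower in the female line. The call of the 1 higher Wnt gene was lost in 5 of the 8 fits that left out 1 library (adjusted p up to 0.318). The 12 Hedgehog genes tested gave 1 higher and 2 lower. Over all genes tested, 1.52% were higher and 2.81% lower. Wnt ligands signal through Frizzled receptors and are captured by Sfrp proteins, while Hedgehog ligands such as Dhh bind Patched and are captured by Hhip. Sfrp2 (chr3:83766321-83774316) had 1 count in the 4 female libraries together and was at 4.11, 11.9, 4.73 and 10.9 CPM in the male ones, a ratio of 203 in summed counts (36.1 to 8071). Hhip (chr8:79965851-80058006) had no count in the female line and was at 1.9, 9.64, 6.06 and 15.7 CPM in the male one, at least 71.7-fold higher against a floor of 3 counts over the line. All 4 male libraries expressed both genes. Fzd6 averaged 2.02 and 13.6 CPM, and Gas1, a co-receptor of Hedgehog, 0.377 and 2.94 CPM. The ligand Dhh was the reverse, with 87 counts in the female line against 2, although female replicate 4 held none.

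Neural and positional genes passed in both directions. Crabp1, which binds retinoic acid in the cytoplasm, was at 1836, 1855, 2147 and 1700 CPM in the female libraries and at 451, 398, 780 and 458 CPM in the male ones (1.85 ± 0.23, adjusted p = 3.41e-07). Of 17 tubulins, motors and related genes tested, 3 were higher and 3 lower, where 1.52% of all genes tested were higher and 2.81% lower. The higher ones on this list were the neuronal Tubb3 (22.9 to 47.3 against 6.22 to 9.48 CPM), Tubb2b (145 to 198 against 68.5 to 111 CPM) and Tubb6 (678 to 802 against 508 to 577 CPM). Stmn2, a neuronal regulator of microtubules, was lower, at 0.93 to 3.34 CPM, with male libraries that themselves spread from 8.87 to 74.2 CPM. Its relative Stmn1 (-0.76) and the kinesin Kif1a (-5.30) were lower as well, with calls lost in 5 and 4 of the 8 fits that left out 1 library. Of 27 transcription factors of brain regions tested, 2 were higher and 4 lower. The midbrain and forebrain factor Otx2 was at 0.167 to 1.71 CPM against 8.56 to 13.7 CPM, and Irx2 (-4.91) was lower too. The higher Nr2f1 (1.03) lost its call in 1 of those 8 fits and Lhx2 (1.45) in 6, and the lower Zic1 (-3.56) and Barhl2 (-3.31) in 7 each. The transcription factor Osr1, known from embryonic mesoderm, was at 4.01 to 8.22 CPM against 38.5 to 67.5 CPM (-3.05 ± 0.33). The adhesion molecule Cadm1 (127 and 51.6 CPM) and the transcription cofactor Lbh (211 and 78.0 CPM) were higher in the female line in every library.

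The epidermal and lysosomal genes that passed were lower in the female line. The median difference over all tested members was -0.64 for the epidermal and -0.04 for the lysosomal list. The median over all genes tested was -0.01, with 1.52% higher and 2.81% lower. Of 20 genes of epidermal differentiation, 0 were higher and 5 lower, and 4 to 5 were lower when any 1 library was left out. Sprr1a, a precursor of the cornified envelope, stood at 4.84, 15.4, 4.69 and 3.72 CPM against 108, 75.6, 68.9 and 102 CPM (-3.60 ± 0.48, adjusted p = 1.5e-06). Krt19 averaged 5.72 and 34.6 CPM, the desmosomal Pkp1 7.67 and 20.8 CPM, and S100a13 38.3 and 81.7 CPM. Of 37 lysosomal genes, 0 were higher and 6 lower, and 4 to 6 were lower when any 1 library was left out. Ctsh was at 7.92 to 13.2 CPM against 23.5 to 50.6 CPM (-1.70 ± 0.26) and Ctsz at 27.3 to 39.4 CPM against 57 to 84.5 CPM (-1.10 ± 0.16), both cysteine cathepsins, while their inhibitor Cstb averaged 324 and 471 CPM. The carbonyl reductases Cbr1 (1.27 and 8.62 CPM) and Cbr3 (3.27 and 13.3 CPM) and the cytochrome P450 Cyp1b1 (3.10 to 5.21 against 21.6 to 46.1 CPM) were lower too. The metal-binding Mt1 was higher in the female line, at 398 to 524 CPM against 142 to 278 CPM.

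In 14 of the 64 lists no member passed in edgeR, with 25 of their 193 members at an unadjusted p under 0.05, 3 called by DESeq2 and 2 by limma voom. They include glycolysis, with 6 of 23 members at an unadjusted p under 0.05, the hypoxia response (1 of 22), sterol synthesis (2 of 23), the amino acid and integrated stress response (5 of 37), integrins (2 of 18) and DNA methylation and Polycomb genes (2 of 20).

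To see which line was the unusual one, each lot 11 line was set against the 8 lines of the other lots. The female line lay outside the range of the 8 other line means for 14.27% of autosomal genes and the male line for 13.66%, while each of the other 8 lines lay outside the range of the lines of the other lots for 14.71% to 40.28%. Over all genes tested, autosomal or not, the shares were 14.3% and 13.7%. By this measure the lot 11 lines were the 2 least set apart of the 10. In the test of line sums, in which the lone line is assumed to vary like the 8, 2 genes (0.0164%) passed for the female line and 0 (0.0%) for the male line. Without the lines of lot 6, 0 genes passed for the female line. At an unadjusted p under 0.05 these were 261 (2.14%) and 207 (1.7%) genes, and DESeq2 called 26 and 6.

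Genes that separated the 2 lines were more often low in one line than high in the other. Of the 332 genes lower in the female line, the female line lay below all 8 other lines in 36.45% and the male line above all 8 in 23.8%. Of the 168 genes higher in the female line, the male line lay below all 8 in 33.33% and the female line above all 8 in 22.62%. Over all genes tested, the female line lay above all 8 in 6.33% and below in 7.94%, and the male line above in 7.32% and below in 6.41%. In both directions the line with the lower level was the one outside the range of the others more often. The female line was farther from the median of the 8 in 198 of the 332 lower genes, and the male line in 93 of the 168 higher genes.

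**Figure D4:**
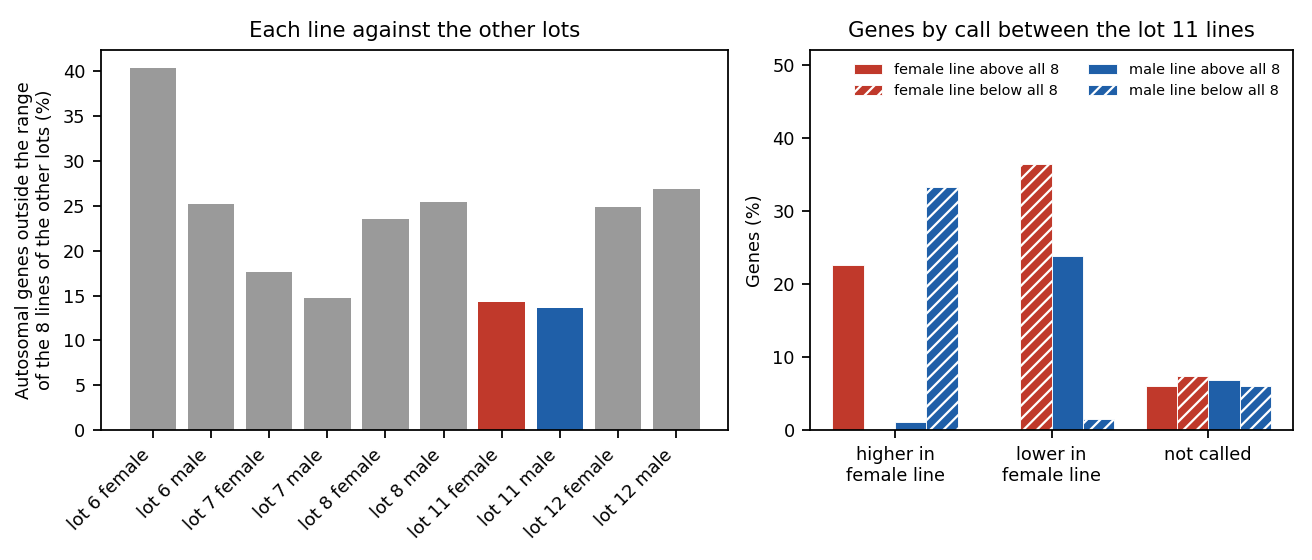
Left, percent of 11717 autosomal genes for which each line's mean lies outside the range of the 8 lines of the other lots (lot 11 in colour). Right, percent of autosomal genes, by their call between the lot 11 lines, for which the female (red) or male (blue) line lies above (plain) or below (hatched) all 8 other lines; the hatched bars are the taller ones for called genes, 33.33% and 36.45%.

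Several genes stood low in the female line. Nmral1, a sensor of NADPH (chr16:4710059-4719356), was at 8.19, 4.51, 6.25 and 5.12 CPM in the female libraries, at 38.4, 45.8, 52.6 and 41.4 CPM in the male ones and at means of 36.8 to 59.1 CPM in the 8 other lines. It was one of the 2 genes that passed against the other lines (-3.05 ± 0.35, adjusted p = 0.0430), and neither passed without the lines of lot 6. Abracl, a small regulator of actin dynamics (chr10:18011260-18023288), was at 4.68, 7.37, 9.9 and 10.4 CPM against 64.6, 66.7, 74.8 and 47.9 CPM, with 39.6 to 80.8 CPM in the other lines. Casp8, the initiator caspase of death receptors (chr1:58795374-58847503), was at 3.51, 0.819, 2.95 and 2.02 CPM against 10.7, 15.2, 16.5 and 15.2 CPM, with 12.8 to 26.1 CPM in the others. The female line stood below every one of the 9 other lines for these 3 genes, though Abracl (adjusted p = 0.300) and Casp8 (adjusted p = 0.270) did not pass against the 8. Ehbp1l1, a membrane-trafficking adaptor, was at 4.18 to 8.47 CPM against 57.1 to 96.1 CPM, and 1 other line shared its low level (6.42 to 112 CPM over the 8). Smim20 stood at 5.12 to 6.01 CPM against 28.6 to 34.1 CPM, and the NADPH oxidase subunit Cyba at 2.33 to 4.34 CPM against 21.9 to 25.7 CPM, both below the lowest of the others (9.39 and 7.25 CPM).

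Other genes had their highest or lowest line mean in the male line. Sfrp2, at a mean of 7.90 CPM there, was at no more than 0.0972 CPM in any other line, and Hhip, at 8.33 CPM, at no more than 2.12 CPM, although Sfrp2 did not pass against the 8 (adjusted p = 0.0585). Osr1 (49.2 against at most 39.2 CPM elsewhere) and Wfdc2 (22.3 against 14.2 CPM) also had their highest mean there. At the other end, Lsp1 (4.28 CPM), Lbh (78.0 CPM) and Cadm1 (51.6 CPM) were lower in the male line than in any other. Igfbp5, Crabp1, Grb10 and Cxcl12, by contrast, lay inside the range of the other lines in both: Igfbp5 ran from 0.757 to 140 CPM over the 8, and Grb10 from 1.36 to 44.9 CPM.

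For 446 of 11717 autosomal genes (3.81%), both lot 11 lines lay outside the range of the 8 others, on the same or opposite sides. Rps3a1 is among them. The ribosomal protein gene Rps3a1 was at 1982 and 1570 CPM in the female and male line and at 64.6 to 535 CPM in the 8 others, while its processed pseudogene Rps3a3 was at 43.6 and 441 CPM against 622 to 1674 CPM. Rps3a3 was the other gene that passed for the female line (-4.85 ± 0.59, adjusted p = 0.0430). The sum of Rps3a1, Rps3a2 and Rps3a3 was 2053 and 2073 CPM and hardly differed between the lot 11 lines. Both sums lay above the 1231 to 1965 CPM of the 8 others. The call of Rps3a1 between the lines was lost in 7 of the 8 fits that left out 1 library (adjusted p up to 0.0863). Near-identical copies can divide the same reads, so the separate values are uncertain. Rplp0, at 9166 and 6253 CPM against 2722 to 4929 CPM, has copies as well.

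The female and male lines of the other 4 lots were compared in the same way. No gene passed a test of the lot 11 difference against that of the other 4 lots (0.0%, with 325 genes, 2.67%, at an unadjusted p under 0.05, and 23 by DESeq2), in a fit with few degrees of freedom. Of the 332 genes lower in the lot 11 female line, the share with the same direction was 50.6% for the pair of lot 6, 45.78% for that of lot 7, 50% for that of lot 8 and 51.81% for that of lot 12, near the shares of all autosomal genes (46.36% to 49.41%). Of the 168 higher genes, the shares were 52.98%, 42.26%, 68.45% and 58.93% for the pairs of lots 6, 7, 8 and 12, where all autosomal genes gave 50.43% to 53.42%. The highest share was that of lot 8, where 53 of these genes passed in the same direction and 13 in the opposite one.

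Genes of chromosome 19 lay lower in the female line across the chromosome. Of 416 tested, 0 were higher and 29 lower (6.97% called). Among them, 196 reached a mean of 4 in log2 CPM, and over these the median difference was -0.24 on the log2 scale and 84.7% lay below 0, where the other 18 autosomes had medians of -0.11 to 0.12 and 49.2% of all autosomal genes lay below 0. All 7 windows of 10 Mb along the chromosome had medians of -0.17 to -0.32, although the last holds 3 genes. By library, the median deviation of these genes from the mean of the 10 lines was -0.20 to -0.04 in the female and 0.03 to 0.21 in the male libraries, which do not overlap. Relative to the 8 other lines the female line was at -0.10 and the male line at 0.12. Some other chromosomes lay farther from those 8 lines, such as chromosome 7 for the male line (-0.25) and chromosome 14 for the female line (0.19). Averaged by line, the chromosome 19 deviation from the mean of the 10 lines was -0.10 (lot 11 female) and 0.14 (lot 11 male). Among the 8 others it ran from -0.09 (lot 12 male) to 0.11 (lot 8 male) on chromosome 19. Among the genes named, Anxa1, which binds phospholipids and limits inflammation (201 and 346 CPM), the mRNA exporter Nxf1 (104 and 175 CPM), Fam111a (30.6 and 69.9 CPM), the complex I subunit Ndufs8 (449 and 609 CPM) and Ehbp1l1 lie there. Rela lies on the same chromosome, and its difference of -0.30 was near the median of its chromosome. Anxa1, Nxf1 and Fam111a were chosen after their values were seen. Whether the lines differ in the number of copies of chromosome 19 was not tested.

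**Figure D5:**
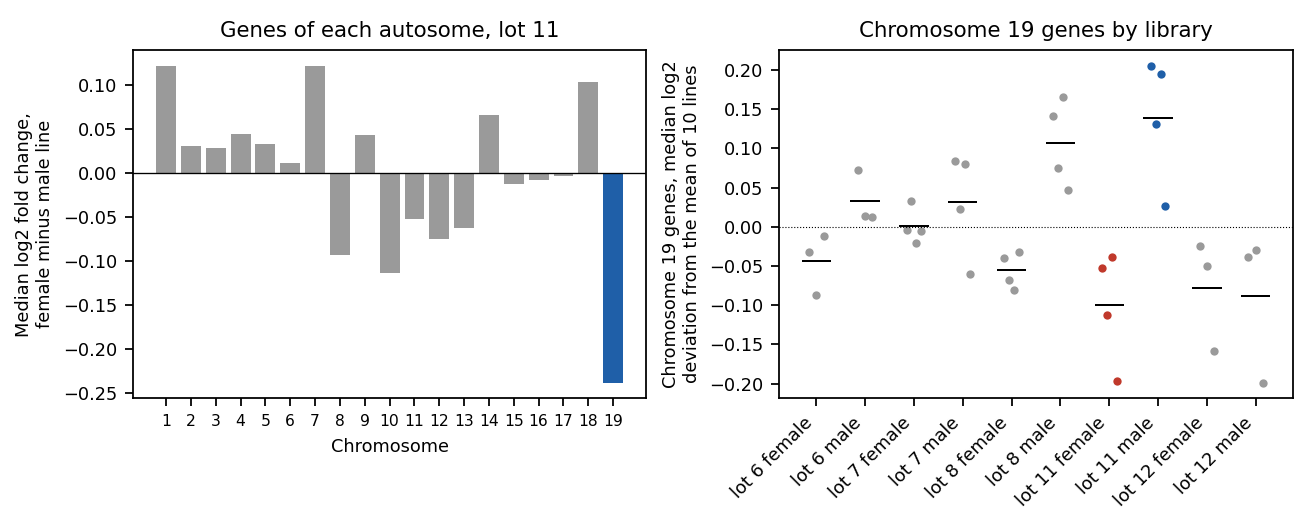
Left, median log2 fold change, female minus male line, of the genes of each autosome whose mean log2 CPM reached 4; chromosome 19 (blue) is the lowest at -0.24. Right, median log2 deviation of chromosome 19 genes from the mean of the 10 lines in each library (points) with line means (bars); the 4 lot 11 female libraries (red) lie below the 4 male ones (blue).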

How the data were processed

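The deposited file holds whole-number counts per Ensembl gene for 36 libraries, made by the authors; per the submitters' processing notes, cutadapt 2.10, STAR 2.7.6a, Subread 2.0.2 and GRCm38 were used. Per the labels' protocols, primers carried a sample barcode and a molecular identifier; whether the deposited counts are of identifiers or reads is not given in the sources used here. Names came from GENCODE M21 (45229 of 46078 identifiers; the rest hold 0.0295% of counts).

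Differences were tested with edgeR 4.0.16 (R 4.3.3), using TMM, filterByExpr and quasi-likelihood F tests over all 36 libraries with 1 coefficient per line, with Benjamini-Hochberg adjustment over 12173 genes and a threshold of 0.05. SE is the fold change divided by the root of F. Lines were compared with other lots on counts summed per line. Range comparisons used line means of CPM. Alternatives were DESeq2 1.42.0, limma 3.58.1 voom, other scalings and filters, and fits without single libraries. Steps were tested on simulated data. The labels tie no replicate number to a batch, and same-numbered libraries of the lines had residual correlations of 0.0116 to 0.0922, so the fits are unpaired.

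The lines compared and the gene lists were chosen with earlier results of these data known. Named genes are the 12 largest fold changes and 8 smallest p-values in each direction (mean log2 CPM of at least 3), up to 4 members of each list with 3 or more called, those of smallest p against other lots (filled to 3) and fixed checks. Rps3a3, Kitl, Fbln1, Perp, Tnfrsf10b, Tnnt2, Mgp, Bst2, Ifitm1, Hbegf, Mt1 and Cyba fall outside that rule and were chosen after their values were seen. Lox, Sparc, Bgn, Stmn1, Kif1a, Lhx2 and Barhl2 fall outside it too and are named as called members of their lists. The result of 1 gene is not reported here.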

Additional observations from a re-analysis of the deposited data

Results flagged for a closer look

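In the sets of 4 libraries of each lot 11 line, 14 of the 190 sets tested held a highest or lowest library far from the other 3; about 1 in 20 sets does so by chance. Male replicate 1 was the high library in 6 of the 14. It held Adam10 at 193.2 CPM, Wtap at 120.4 CPM, Cdk6 at 107.1 CPM, Notch2 at 99.69 CPM, Vapa at 60.2 CPM and Timp2 at 468.4 CPM, where the other male libraries reached 34.79, 25.66, 42.37, 12.05, 27.04 and 388.2 CPM. Male replicate 3 was high for Crabp1 at 780.1 CPM, Mt1 at 277.8 CPM and Dhh at 0.3785 CPM. Male replicate 4 was high for Ccnd2 at 355.6 CPM, and male replicate 2 was low for Cyba at 21.87 CPM.

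Among the female libraries, replicate 2 was high for Sprr1a at 15.43 CPM and held the single Sfrp2 count, at 0.1366 CPM. Replicate 3 was high for Mest at 33.01 CPM. Mest, Crabp1, Mt1, Sprr1a, Cyba, Ccnd2, Cdk6 and Timp2 kept their calls in every fit that left out 1 library.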

How the results depend on the processing

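The difference between the lot 11 lines gave 519 to 694 genes over other scalings, filters, DESeq2 and limma voom, against 527, and a test against a 1.5-fold change left 187 genes, 43 higher and 144 lower. Of 89 named genes that passed and were followed through the settings, 77 held in all 8 fits that left out 1 library. In every setting that tested them, 55 of the 89 kept their call. The fits of the 8 lot 11 libraries alone tested 10135 genes, and some named genes were not among them. Among the 89, 10 lost their call without male replicate 1 and 0 changed direction under any setting. Stmn1, Kif1a, Irx2, Nr2f1, Lhx2, Zic1 and Barhl2 are not in that count. All of these but Irx2 lost their call in 1 to 7 of the 8 fits. Same-numbered libraries of the lines had residual correlations of 0.0116 to 0.0922, none over 0.1. Replicates 1, 2 and 4 of each line correlated best with their own number, and replicate 3 did not. With a replicate block, the 8 libraries gave 658 genes (265 higher and 393 lower) against 469 without it. The mitochondrial share of counts was lowest in the replicate 4 libraries (0.315% and 0.333%, against 0.559% to 0.671% in the other 6), and without replicate 4 of both lines, a fit chosen after seeing the data, 384 genes passed. In each line of lots 7 and 8, replicate 4 also had the lowest share (0.251% to 0.349%). Whether replicate 4 is a batch was not tested. The chromosome 19 median ran from -0.28 to -0.20.

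Against the other lots, DESeq2 called 26 genes for the female line (2 higher and 24 lower) and 6 for the male line (5 higher and 1 lower), and 23 for the difference of the pairs (1 higher and 22 lower). Without the lot 6 lines the female line had 0 genes, 0 of them lower, and against the 4 other female lines 1 higher and 1 lower. For the male line, fits without single libraries gave 0 to 1 genes, the 1 higher gene without male replicate 1. The causes were not tested. Depth limits genes under about 1 CPM.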
